A study of Mus musculus with 2 samples.

Results

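The cells described here are dendritic cells that carried the transcripts of the chemokine receptor Ccr7 and of the actin-bundling protein Fscn1, taken from mouse brain tumours. They were picked by their own transcripts: a barcode needed at least 1 Ccr7 UMI, at least 1 Fscn1 UMI and at least 4 UMIs of Ccr7, Fscn1, Ccl22 and Cacnb3 together. It also needed no UMI of Cd3e, Cd3d, Cd3g or Cd79a, and under 20 UMIs per 10000 of C1qa, C1qb and C1qc. A UMI is a tag that marks 1 captured transcript. The rule found 215 cells among 12112 Glut5 KO barcodes and 267 cells among 11473 wildtype barcodes, so 482 of 23585 barcodes that had at least 300 genes and under 10% mitochondrial UMIs.

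The tumours grew from CT-2A cells, a mouse glioma line, implanted in the brains of Glut5 KO mice or wildtype mice and removed 14 days later. Glut5 is the fructose transporter encoded by Slc2a5. Leukocytes were enriched with magnetic beads against CD45 and run through a droplet platform that reads the 5′ ends of transcripts. Each genotype had 1 library, so no value below has a replicate check and no test was possible. Genotype and library cannot be told apart. How many animals were used, of which sex, and what was deleted from Slc2a5 is not stated in the labels. Brackets give exact 95% intervals, which cover counting error only, and CPM means UMIs per 1000000 over all cells of a type in a library.

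Dendritic cells take up antigen in tissues and present it to T cells. On maturation they lose much of their uptake machinery, gain CCR7 and costimulatory molecules, and crawl along gradients of the CCR7 ligands CCL19 and CCL21 towards draining lymph nodes. The mature state is driven in large part by the NF-kB transcription factors, and it pairs costimulation of T cells with molecules that restrain them, such as PD-L1. Other dendritic cells of tumours include cross-presenting cDC1, which carry Xcr1 and Clec9a, cDC2, which carry Cd209a, and interferon-producing pDC, which carry Siglech.

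These 3 other types were picked by short rules too, under the same limits on Cd3, Cd79a and C1q. They held 134 cDC1, 34 cDC2 and 106 pDC in the Glut5 KO library, and 195 cDC1, 29 cDC2 and 59 pDC in the wildtype library. Median depth was 5302 UMIs per migratory cell in Glut5 KO tumours and 4839 in wildtype tumours. For cDC1 the medians were 13922.5 and 13043 UMIs, for cDC2 9048.5 and 8265, and for pDC 6571 and 6553, in Glut5 KO and wildtype tumours in turn. Whole libraries held 96851696 UMIs for Glut5 KO and 116105873 for wildtype. The libraries had 188 barcode sequences in common, and no sequence was a migratory cell in both.

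The label was checked against its 5 markers. Il4i1, which encodes a secreted enzyme that breaks down aromatic amino acids, was not part of the rule. It stood at 635 CPM in Glut5 KO and 478 CPM in wildtype migratory cells, against at most 47.8 CPM in any other dendritic type. After thinning every cell to 1000 UMIs, 44.3% of Glut5 KO and 34.4% of wildtype migratory cells had an Il4i1 UMI. Thinned cDC1 had one in 1.49% of Glut5 KO and 0.513% of wildtype cells. Thinned cDC2 had one in 1 of 34 Glut5 KO cells (2.94%) and in 0 of 29 wildtype cells, with an exact upper limit of 11.9%. Thinned pDC had 0 of 105 and 0 of 58 cells, with exact upper limits of 3.45% and 6.16% of cells with a UMI at that depth. Without thinning, 3 of 59 wildtype pDC had one. The 4 rule genes were high by choice. Ccr7 was at 4922 CPM in Glut5 KO and 5367 CPM in wildtype cells, and Fscn1, which makes the cell's filopodia, at 3837 and 4095 CPM. Ccl22, a ligand of CCR4 on T cells, was at 690.4 and 721 CPM, and Cacnb3, a calcium channel subunit, at 538 and 603 CPM. Barcodes lay far from the limit of the rule in most cases, with a median of 52 rule UMIs per Glut5 KO cell and 61 per wildtype cell. Exactly 4 rule UMIs were seen in 1 Glut5 KO and 4 wildtype cells inside it, and exactly 3 in 3 and 1 barcodes outside it.

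Some members stood apart from the rest. In the wildtype library 5 members, and in the Glut5 KO library 0, carried 43.4 to 311 UMIs per 10000 of Col1a1, Col1a2, Col3a1, Bgn, Mgp and Serpinh1, which are genes of matrix-producing cells. Just 1 of the 5 had a UMI of Ptprc, the gene of CD45, yet together they held 6.30% of the wildtype migratory UMIs. A further 13 Glut5 KO and 7 wildtype members had under 20 rule UMIs per 10000 and held 12.3% and 6.32% of the UMIs. The remaining 202 Glut5 KO and 255 wildtype cells are called core members, a set defined after these values were seen, and their ratios are given beside many of those over all members. Scrublet, a doublet caller, marked 0 barcodes by its automatic threshold in both libraries and so gave no usable call.

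Sex differed as well between the libraries. Xist alone was seen in 48 Glut5 KO and 42 wildtype members, and Y-linked transcripts alone in 39 and 85. The libraries therefore each hold cells of more than 1 animal, and ratios within Xist-alone and Y-alone cells are given beside some of the results. Another 125 Glut5 KO and 135 wildtype members had neither, and 3 and 5 had both. Xist-alone and Y-alone ratios leave these members out, so they do not cover all members. The 5 collagen-rich wildtype members were all among the Xist-alone cells, which held 192 of 192 Ccn1 and 334 of 335 Bgn UMIs of wildtype members. Xist-alone ratios therefore include those 5 members, and their part in them was not tested. Markers of other cells give a partial view of free transcripts and mixed droplets. The rule had already removed barcodes with Cd3 or Cd79a UMIs or high C1q. Sums for T cells, B cells and macrophages are therefore those left after that removal and cannot gauge mixing before it. Summed markers were at 171 CPM in Glut5 KO and 69.0 CPM in wildtype members for T cells (1 and 2 of 16 genes at 0), at 206 and 119 CPM for B and plasma cells (2 and 5 of 12 at 0), and at 682 and 695 CPM for microglia (1 of 12 at 0 in each). They were at 1176 and 1217 CPM for macrophages (2 of 15 at 0 in each), at 1350.3 and 935 CPM for monocytes (2 and 1 of 9 at 0), and at 63.7 and 5.40 CPM for neutrophils (2 and 6 of 9 at 0). Tumour and stroma markers summed to 1232 and 1264 CPM (7 and 2 of 12 at 0), of which Vim, also made by leukocytes, gave 1223 and 996 CPM. NK cell markers summed to 9943 and 11541 CPM (0 of 11 at 0), most of it from Ccl5, which is described below as a gene of these cells. Among defining genes, Foxp3 and Mrc1 had 0 UMIs in both libraries and P2ry12 had 2 and 5. Others were present: Lyz2 had a UMI in 14.0% of Glut5 KO and 18.0% of wildtype members and Apoe in 31.6% and 28.5%, while Gzma had 124 and 82 UMIs and Cd8b1 109 and 29. Their part in the results was not tested.

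Promoter sequences are shown because 12 of 27 NF-kB genes were at least 2-fold higher in these cells than in every other dendritic type in both libraries, against 6.64% of all 4335 genes compared. A common form of the NF-kB binding motif (3 G, then 2 of any base, then 3 T and 2 C) was searched on both strands in the 250 bases before each RefSeq start site (GRCm38.p6). Of the 288 genes that were higher in this way, 232 had a promoter in the table and 10 of these (4.31%) held the motif. The share was 68 of 3480 (1.95%) over all compared genes with a promoter and 447 of 27025 (1.65%) over all genes in the table. In a list of 27 NF-kB subunits, inhibitors and targets, 6 of the 23 genes with a promoter held it (26.1%). This list was put together as genes of the NF-kB pathway, and 12 of its 27 genes are among the 288. Its share is therefore not separate from theirs. A match is a description of the letters and does not show binding. The lines below give, 5′ to 3′, the promoters of Nfkb2, which encodes the NF-kB subunit p100/p52 and has matches before 2 start sites, of Traf3, an inhibitor of the p100 pathway, of Bcl2l1, which encodes the survival protein Bcl-xL, and of Tnfrsf9, which encodes the receptor 4-1BB. Capitals mark the motif, which in Bcl2l1 lies on the opposite strand.
Nfkb2 (chr19:46304487-46304736, plus strand): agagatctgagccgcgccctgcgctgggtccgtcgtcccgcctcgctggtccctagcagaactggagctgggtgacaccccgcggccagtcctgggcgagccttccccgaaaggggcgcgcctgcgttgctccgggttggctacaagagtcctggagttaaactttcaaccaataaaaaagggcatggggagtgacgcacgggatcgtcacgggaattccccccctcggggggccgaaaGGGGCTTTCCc
Nfkb2 (chr19:46305680-46305929, plus strand): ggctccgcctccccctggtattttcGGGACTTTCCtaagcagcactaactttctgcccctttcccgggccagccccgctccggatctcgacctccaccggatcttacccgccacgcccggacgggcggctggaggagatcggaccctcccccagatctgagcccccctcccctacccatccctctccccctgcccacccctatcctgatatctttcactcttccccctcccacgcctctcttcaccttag
Traf3 (chr12:111166120-111166369, plus strand): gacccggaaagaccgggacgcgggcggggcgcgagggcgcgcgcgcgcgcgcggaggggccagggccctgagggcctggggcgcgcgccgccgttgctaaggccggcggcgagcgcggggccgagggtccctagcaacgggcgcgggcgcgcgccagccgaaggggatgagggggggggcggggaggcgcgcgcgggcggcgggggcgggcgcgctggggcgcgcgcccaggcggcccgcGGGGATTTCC
Bcl2l1 (chr2:152830718-152830967, minus strand): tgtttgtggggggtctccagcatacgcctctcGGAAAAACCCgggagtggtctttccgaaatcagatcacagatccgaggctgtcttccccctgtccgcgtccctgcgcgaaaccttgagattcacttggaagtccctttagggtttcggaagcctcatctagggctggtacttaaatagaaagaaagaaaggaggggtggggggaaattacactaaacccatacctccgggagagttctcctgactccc
Tnfrsf9 (chr4:150927749-150927998, plus strand): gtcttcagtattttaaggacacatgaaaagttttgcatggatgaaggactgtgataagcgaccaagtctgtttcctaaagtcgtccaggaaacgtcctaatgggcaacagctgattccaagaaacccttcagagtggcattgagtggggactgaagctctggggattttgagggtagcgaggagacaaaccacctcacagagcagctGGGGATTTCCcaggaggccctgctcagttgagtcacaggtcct

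The motif ended 2 bases before the upstream start site of Nfkb2 and 1 base before that of Traf3, and in Tnfrsf9 it began 43 bases before the start. Levels of these genes were all higher in migratory cells than in the other types. Nfkb2 stood at 354 CPM in Glut5 KO and 381 CPM in wildtype migratory cells, against 57.5 to 94.7 CPM in the other types. Traf3 stood at 116 and 130 CPM, against 17.7 to 47.8 CPM. Bcl2l1 stood at 44.9 and 53.4 CPM, against 8.27 to 21.0 CPM. Tnfrsf9 stood at 70.3 and 122 CPM, against 0 to 5.02 CPM.

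Set against the other dendritic cells, the members stood out by a broad set of genes in both libraries. Of 4335 genes with enough counts, 288 (6.64%) were at least 2-fold higher in all 6 ratios (3 other types, 2 libraries) and 114 (2.63%) at least 2-fold lower. Because the members were chosen on their own transcripts, these contrasts are a description without a test. The genes that led, by the lowest of the 6 ratios, were in part rule genes (Fscn1, Cacnb3 and Ccr7) and in part genes that the rule did not use. Nudt17, a member of the Nudix hydrolase family, stood at 348 CPM in Glut5 KO and 292 CPM in wildtype migratory cells and at most 2.08 CPM elsewhere. Tnfrsf4, the T cell costimulatory receptor OX40, stood at 247 and 290 CPM, against at most 4.14 CPM. Socs2, a feedback inhibitor of cytokine signalling, stood at 395 and 294 CPM, against at most 8.27 CPM. Clu, a secreted chaperone, stood at 99.2 and 87.6 CPM, against at most 1.61 CPM. Zmynd15, known as a transcriptional repressor in mouse spermatids, stood at 685 and 678 CPM, against 4.05 to 24.8 CPM. Ceacam15 had 76.8 and 115 CPM and no UMI in any other type. Other leading genes were Fgfbp3, Mreg, Slc27a3, Arc, Adcy6, Dnajc12, Insl6, Mmp25, Cd70 and Flrt3.

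**Figure D1:**
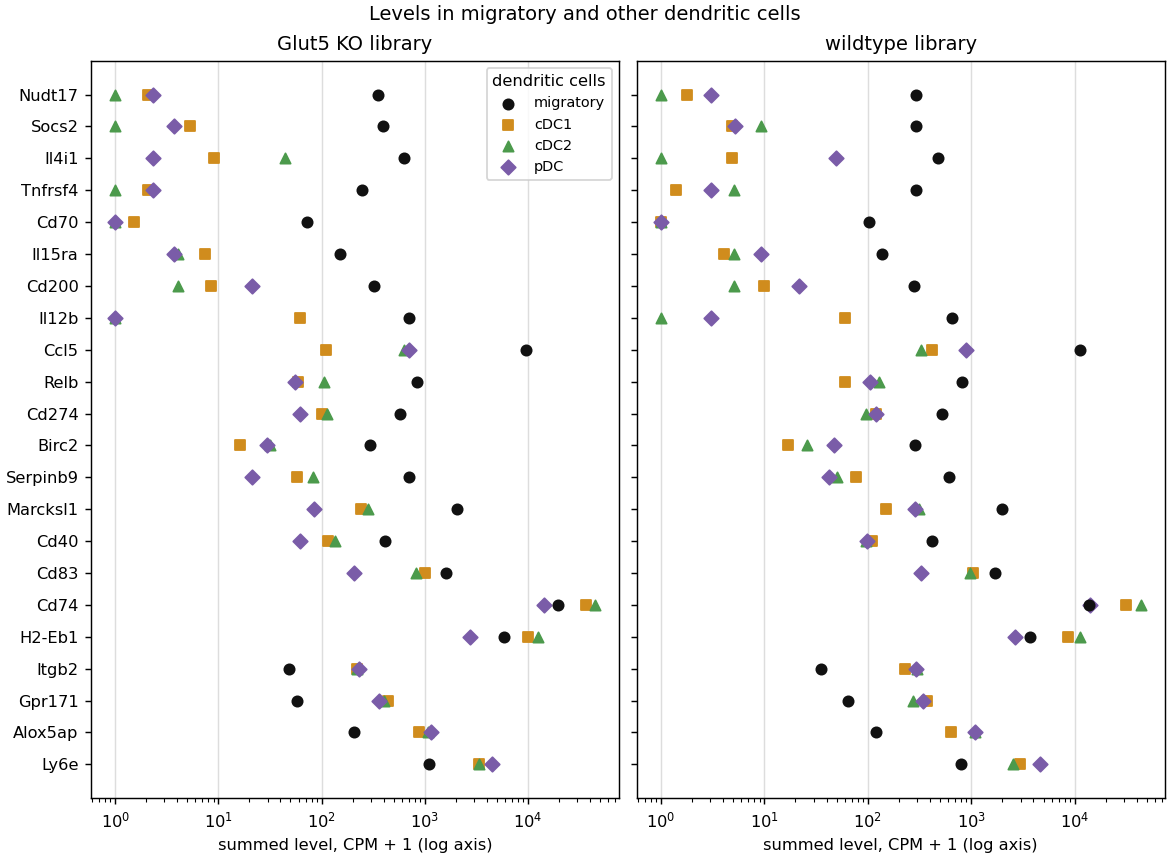
Levels of the genes that set migratory cells apart, in Glut5 KO (left) and wildtype (right) libraries. The x axis is CPM + 1 on a log scale, and each symbol is the summed level of 1 dendritic type (black circles migratory cells, orange squares cDC1, green triangles cDC2, purple diamonds pDC). Black circles lie to the right for genes such as Nudt17 (348 and 292 CPM) and to the left for genes such as Itgb2 (47.1 and 34.2 CPM).

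Genes of movement were raised as a group. Of 23 compared members of the migration and cytoskeleton list, 16 were at least 2-fold higher in all 6 ratios and 1 lower. Without the rule genes Ccr7, Fscn1 and Cacnb3, 13 of 20 were higher. Beside this and the list counts below stand 6.64% higher and 2.63% lower over all 4335 genes. The lists were chosen with earlier results of these data known, so their counts are a description. Marcksl1, which links the membrane to actin, stood at 2057 CPM in Glut5 KO and 1967 CPM in wildtype migratory cells, against 83.8 to 310.2 CPM in other types. Myo1g, a membrane myosin, stood at 643 and 630.3 CPM, against 70.7 to 145 CPM. Mmp25, a membrane-anchored matrix protease, stood at 273 and 263 CPM, against 0 to 15.6 CPM. Adhesion genes went both ways. Icam1, a ligand of leukocyte integrins, was at 367 and 321 CPM, against 55.0 to 154 CPM. Itgb7, an integrin chain for gut homing, was at 33.3 and 19.8 CPM, against 89.2 to 281 CPM. Itgb2, the common chain of leukocyte integrins, was at 47.1 and 34.2 CPM, against 219.8 to 298 CPM.

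Of 12 compared chemokines, 4 were at least 2-fold higher in all 6 ratios and 1 lower, and 1 of the 4 was the rule gene Ccl22. Ccl5, an attractant of T cells and monocytes, was at 9565 CPM in Glut5 KO and 11228 CPM in wildtype migratory cells, against 109 to 886 CPM. At 1000 UMIs per cell, 84.2% of Glut5 KO and 89.3% of wildtype migratory cells had a Ccl5 UMI. The matching shares were 4.48% and 12.8% of cDC1, 17.6% and 17.2% of cDC2, and 18.1% and 20.7% of pDC. Ccl17, the other ligand of CCR4, was at 196 and 201 CPM, against 2.70 to 57.6 CPM. Cxcl16, the ligand of CXCR6 on tissue T cells, was at 984 and 947 CPM, against 77.0 to 273 CPM. Ccl4, an inflammatory chemokine, was at 122 and 225 CPM, against 533 to 4383 CPM. Ccl19, one of the ligands of CCR7 itself, had 2 UMIs in Glut5 KO and 1 UMI in wildtype migratory cells.

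Costimulatory genes were raised as a group. Of 16 compared members of the maturation list, 10 were at least 2-fold higher in all 6 ratios and 1 lower, against 6.64% and 2.63% of all genes. Cd40, through which T cells license dendritic cells, was at 411 CPM in Glut5 KO and 420 CPM in wildtype migratory cells, against 60.8 to 134 CPM. Cd80, a ligand of CD28, was at 230.4 and 237 CPM, against 12.2 to 128 CPM, while its partner Cd86 was at 381 and 343 CPM and reached 373 CPM in another type. Cd70, the ligand of CD27, was at 71.0 and 101 CPM, against at most 0.538 CPM. Genes that restrain T cells accompanied them, with 10 of 15 compared higher and 0 lower. Cd274, which encodes PD-L1, was at 574 and 524 CPM, against 60.8 to 119.8 CPM. Pdcd1lg2, which encodes PD-L2, was at 167 and 157 CPM, against 6.76 to 37.2 CPM. Cd200, an inhibitory surface ligand, was at 323 and 282 CPM, against 3.06 to 20.8 CPM. Other regulators on the list were nearly absent: Il10 had 0 UMIs in both libraries and Ido1 had 9 UMIs in Glut5 KO and 7 in wildtype migratory cells.

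Among cytokines, Il12b, the shared chain of IL-12 and IL-23, was at 698 CPM in Glut5 KO and 656 CPM in wildtype migratory cells, against at most 60.7 CPM. It was patchy: 43.3% of Glut5 KO and 45.7% of wildtype members had a UMI, and the top 5% of members held 51.0% and 56.0% of its UMIs. Its partner chains Il12a and Il23a had 0 UMIs in both libraries. Il15 and Il15ra, which together present IL-15 to NK and T cells, were both high. Il15 was at 114 and 116 CPM, against 3.06 to 27.9 CPM, and Il15ra at 149 and 137 CPM, against 2.70 to 8.32 CPM. Il1b was at 1282 and 1339 CPM, within the 831 to 4306 CPM of the other types. Of 23 compared receptors, 3 were at least 2-fold higher in all 6 ratios: Il15ra, Tnfrsf11a (RANK), at 99.97 and 110.5 CPM, and Il2ra, the alpha chain of the IL-2 receptor, at 105 and 69.6 CPM.

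The NF-kB list had 12 of 27 members at least 2-fold higher in all 6 ratios and 0 lower. Relb, the partner of p52, was at 847 CPM in Glut5 KO and 805 CPM in wildtype migratory cells, against 54.0 to 128 CPM. Traf1, an adaptor of TNF receptors, was at 1142 and 1015 CPM, against 118 to 327 CPM. Serpinb9, an inhibitor of granzyme B, was at 701 and 608 CPM, against 20.3 to 82.5 CPM. Subunits of the classical pathway stood closer to the other types. Rela was at 124 and 125 CPM, against 56.4 to 110.2 CPM, and Nfkb1 at 248 and 239 CPM, against 102 to 294 CPM.

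Members also varied among themselves. Thinned to 1000 UMIs per cell, Ccl5 had a variance over mean of 17.5 in Glut5 KO and 19.5 in wildtype members, where equal cells with counting error alone would give about 1. The value for Cd74 was 16.7 and 18.8, and for Actb, the gene of beta-actin, 6.35 and 6.06. The 5% of members with the most Ccl5 UMIs held 32.3% of them in Glut5 KO and 25.4% in wildtype. H2-Aa had a UMI in 91.2% of Glut5 KO and 78.7% of wildtype members, and Il1b in 62.8% and 62.9%. Sct lay at the other end, with 89.7% and 100% of its UMIs in the top 5% of members. Members held a median of 1846 genes in Glut5 KO and 1713 in wildtype cells, with medians of 0.249% and 0.180% mitochondrial UMIs.

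Identity genes of the other dendritic types had medians below the type they mark. Of 15 compared cDC1 identity genes, 0 were at least 2-fold higher in all 6 ratios and 0 lower (6.64% and 2.63% over all genes). Genes of 1 type are low in the others, so this count could hardly find them lower. Against cDC1 the list's median log2 ratio was -3.20 in Glut5 KO and -3.57 in wildtype. The cDC2 list had -1.49 and -2.54 against cDC2, and the pDC list -5.03 and -5.28 against pDC. Genes by which those types were picked were not left out of these lists. Irf8, a factor that cDC1 and pDC need, was at 1493 CPM in Glut5 KO and 1477 CPM in wildtype migratory cells, against 64.2 to 2446 CPM. Batf3, needed for cDC1, was at 301 and 330.2 CPM, against 10.8 to 203 CPM. The surface proteins of cDC1 were low. Clec9a had a UMI in 11.2% of Glut5 KO and 7.12% of wildtype members, against 96.3% and 95.9% of cDC1, for which its UMIs were part of the rule. Genes lower than in all other types included Gpr171, a G protein-coupled receptor, at 57.2 and 63.0 CPM against 273 to 441 CPM, and Alox5ap, which is needed to make leukotrienes, at 204 and 119 CPM against 634 to 1153 CPM. Cd53, a tetraspanin, was at 50.7 and 39.0 CPM, against 121 to 266 CPM. Ly6e was at 1102 and 789 CPM, against 2507 to 4653 CPM. The number of such genes was 114 over all members and 217 over core members.

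Metabolic genes were mostly not distinctive. Slc2a5 (ENSMUSG00000028976, chr4:150119283-150144169, mm10) had 0 UMIs in migratory cells, cDC1, cDC2 and pDC of both libraries, so its loss could not be checked in these cells. Over all other barcodes it had 1 UMI in the Glut5 KO and 384 UMIs in the wildtype library. Pfkfb3, which makes the activator of phosphofructokinase, was at 212 CPM in Glut5 KO and 196 CPM in wildtype migratory cells, against 21.4 to 49.6 CPM in other types. Fabp5, a fatty acid carrier, was at 1663 and 1868 CPM, against 11.8 to 405 CPM.

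Migratory cells made up a smaller share of the Glut5 KO library. They were 1.78% [1.55 to 2.03] of Glut5 KO barcodes and 2.33% [2.06 to 2.62] of wildtype barcodes, a ratio of 0.763 [0.634 to 0.916]. Before the limits on other cells' genes, 422 Glut5 KO and 453 wildtype barcodes met the rule. Cd3 UMIs then removed 97 and 81, Cd79a 36 and 10, and C1q 74 and 95. The part of these removals in the ratio was not tested. Kept barcodes had a median of 6523.5 UMIs in Glut5 KO and 8682 in wildtype. Among Y-alone cells they were 1.47% in Glut5 KO and 2.35% in wildtype, a ratio of 0.628 [0.418 to 0.927]. Among Xist-alone cells the shares were 1.38% and 1.45%, a ratio of 0.951 [0.616 to 1.48]. The cDC1 share was also lower over all barcodes, at 1.11% of Glut5 KO and 1.70% of wildtype barcodes, a ratio of 0.651 [0.518 to 0.815]. That ratio was 0.465 [0.304 to 0.697] among Y-alone cells but 1.31 [0.861 to 2.03] among Xist-alone cells. The 54 Glut5 KO and 19 wildtype barcodes that met several rules count in none of these types. For pDC the order was the other way, at 0.875% and 0.514%, a ratio of 1.70 [1.23 to 2.38]. Of the cells that met 1 of the 4 dendritic rules, migratory cells were 44.0% [39.5 to 48.5] in Glut5 KO and 48.5% [44.3 to 52.8] in wildtype tumours. The bead selection sets which cells enter, and shares of a library do not give numbers of cells per tumour.

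**Figure D2:**
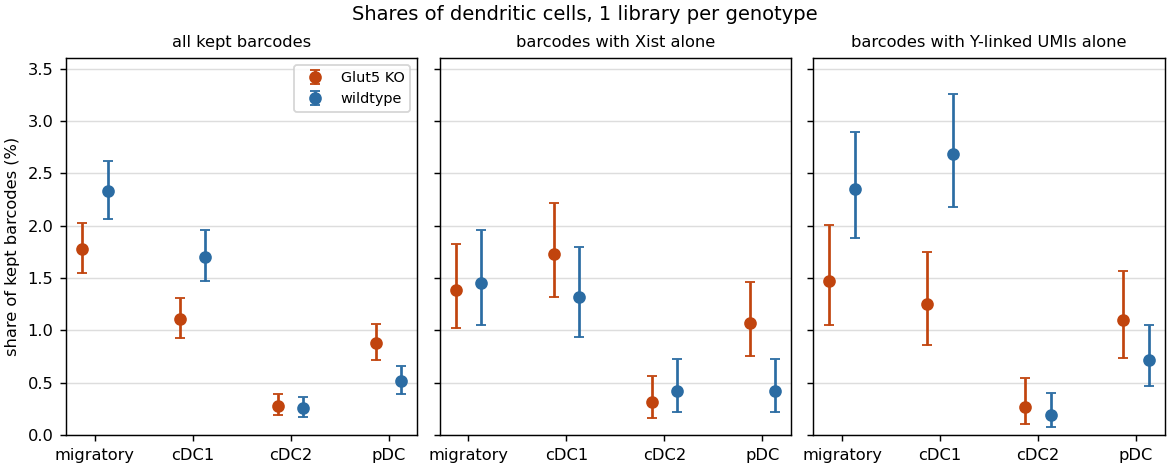
Share of each dendritic type among kept barcodes, in percent, with Clopper-Pearson 95% intervals, for Glut5 KO (red, left) and wildtype (blue, right). The 3 panels show all kept barcodes, those with Xist alone and those with Y-linked UMIs alone. Migratory cells stand at 1.78% in Glut5 KO and 2.33% in wildtype over all barcodes, and at 1.38% and 1.45% among Xist-alone barcodes.

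Between genotypes, the lists of the migratory state had median ratios near that of all genes, while MHC class II genes were higher in Glut5 KO cells. Of 2932 genes with 100 or more UMIs in the members of both libraries together and 50 CPM or more in either, 90 (3.07%) were at least 1.5-fold higher in Glut5 KO and 114 (3.89%) at least 1.5-fold lower. Over core members the counts were 65 and 60 of 2843. For lists, which use members with at least 20 UMIs, the matching shares over 8349 genes are 7.33% higher and 11.3% lower, with a median log2 ratio of -0.04. All log2 ratios below are Glut5 KO over wildtype.

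Lists of the migratory state had medians near that value. The migration list had a median log2 ratio of 0.03, with 1 of 25 measured members 1.5-fold higher and 1 lower. The NF-kB list had a median of -0.02, with 0 of 27 past 1.5-fold in either direction. Medians were 0.08 for maturation (0 of 18 higher, 2 lower), 0.11 for regulatory molecules (1 of 16 higher, 2 lower), -0.06 for chemokines (0 of 13 higher, 2 lower, with the rule gene Ccl22 at the median) and 0.03 for receptors (3 of 23 higher, 0 lower). Cytokines had a median of -0.03, with 2 of 11 higher and 1 lower. Glycolysis genes had a median of 0.08 and none of 16 past 1.5-fold. The 52 respiratory chain genes had a median of -0.06, with 2 lower. List medians also differed between Xist-alone and Y-alone cells: the median for maturation was 0.29 in Xist-alone and -0.15 in Y-alone cells, and for NF-kB 0.17 and -0.13. In the same order it was 0.67 and -0.05 for chemokines and 0.43 and 0.09 for receptors, farther from the all-gene median in Xist-alone cells. For cytokines it was -0.15 and 0.11. The Xist-alone wildtype cells include the collagen-rich members, whose part in this was not tested.

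**Figure D3:**
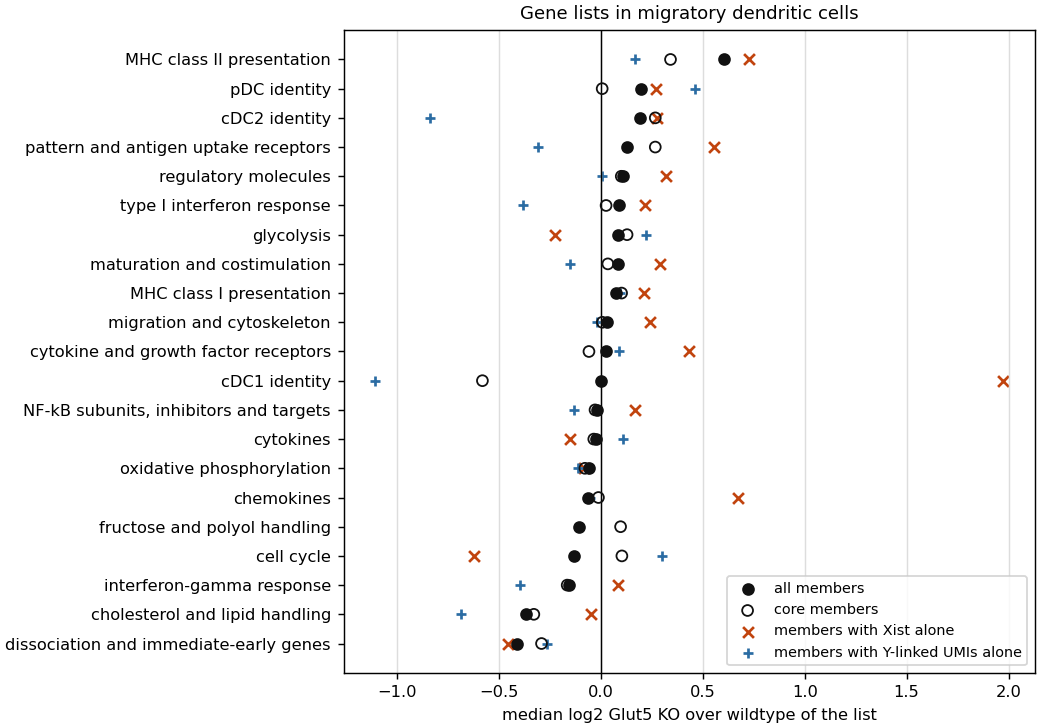
Median log2 ratio of Glut5 KO over wildtype for 21 gene lists in migratory cells. Filled circles are all members, open circles core members, x marks Xist-alone cells and plus marks Y-alone cells. The MHC class II list lies farthest to the right for all members, at 0.61, and the immediate-early list farthest to the left, at -0.41.

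MHC class II genes were the list that stood highest in Glut5 KO cells. Its 15 measured members had a median log2 ratio of 0.61, with 8 at least 1.5-fold higher and 0 lower. Cd74, the invariant chain that guides class II molecules, was at 19661 CPM in Glut5 KO and 13913 CPM in wildtype migratory cells, a log2 ratio of 0.50 [0.47 to 0.52]. H2-Aa was at 7691 and 5181 CPM (0.57 [0.53 to 0.61]) and H2-Eb1 at 5879 and 3732 CPM (0.66 [0.61 to 0.70]), which are chains of the presenting molecule. Ciita, the master activator of class II genes, was at 46.4 and 28.8 CPM (0.68 [0.12 to 1.26]). Its log2 ratio was 0.54 [-0.11 to 1.20] in core members and -0.21 in Y-alone cells. Ctss, the protease that trims the invariant chain, was at 1103 and 777 CPM (0.51 [0.40 to 0.61]). H2-Eb2 was at 90.6 and 53.4 CPM (0.76 [0.36 to 1.17]), and it was the 1 class II gene at least 2-fold higher than in all other types, which had at most 8.27 CPM. It is a close relative of H2-Eb1, so reads that match both may have been split between them.

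The size of the class II difference depended on which members were counted. In core members the median was 0.34 with 1 of 14 genes past 1.5-fold, and Cd74 had a log2 ratio of 0.29. The 13 Glut5 KO members with few rule UMIs held 6647 of the 27140 Cd74 UMIs and 120 of the 248 H2-Oa UMIs. Xist-alone cells, which include the collagen-rich wildtype members, had a median of 0.73 and Y-alone cells 0.17. Class II transcripts were also higher in the rest of the Glut5 KO library, where the list summed to 47625 CPM in Glut5 KO and 29271 CPM in wildtype barcodes outside the dendritic types. The part of free transcripts in the difference was not tested. In cDC1 the sums were 74279.5 CPM in Glut5 KO and 65898 CPM in wildtype cells, in cDC2 93237 and 87915 CPM, and in pDC 27424 and 27399 CPM. Migratory cells, at 42221 and 29313 CPM, thus lay between pDC and cDC1. Class I genes differed less, with a median of 0.07 and 1 of 18 past 1.5-fold. H2-K1 was at 4867 CPM in Glut5 KO and 4369 CPM in wildtype cells.

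**Figure D4:**
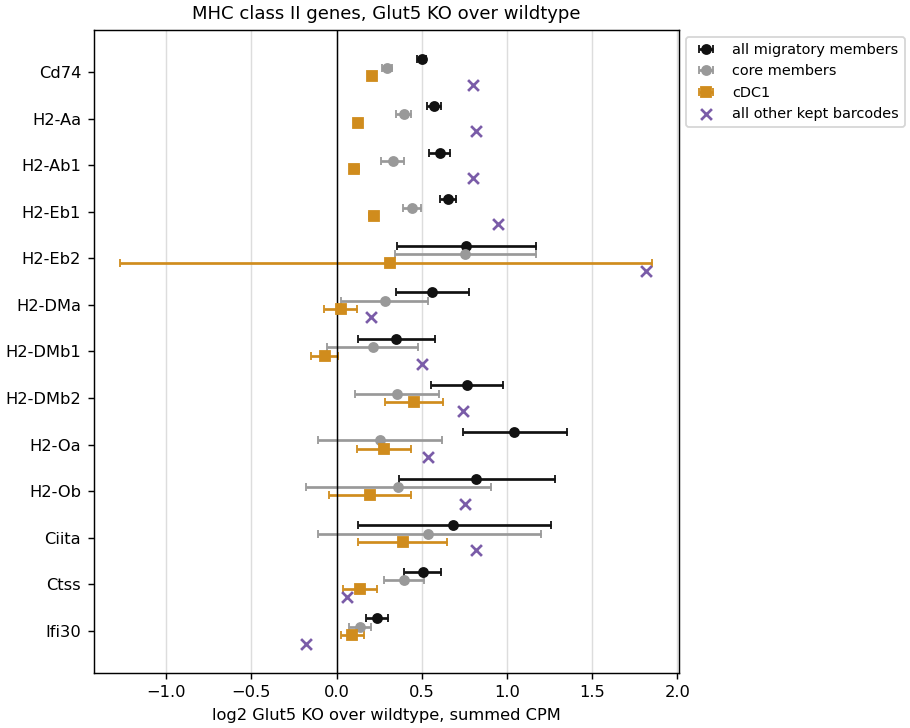
Log2 ratio of Glut5 KO over wildtype for 13 MHC class II genes, with 95% counting intervals for migratory cells and cDC1. Black marks all members, grey core members, orange cDC1 and purple x all other kept barcodes. Black points lie to the right of 0 for each gene, with Cd74 at 0.50 in all members and 0.29 in core members.

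Timd4, a receptor for phosphatidylserine on dying cells, led the higher ones. It had 184 UMIs in 40 Glut5 KO cells and 41 UMIs in 22 wildtype cells, or 133 and 24.6 CPM, a log2 ratio of 2.42 [1.94 to 2.96]. The ratio was 2.30 in core members, 2.62 in Xist-alone cells and 1.27 in Y-alone cells. In cDC1 Timd4 was at 19.9 CPM in Glut5 KO and 3.87 CPM in wildtype, and in cDC2 at 58.1 and 8.27 CPM, while all other barcodes had 4.96 and 3.81 CPM. Zdhhc18, a palmitoyltransferase, had 158 UMIs in 105 Glut5 KO cells and 62 UMIs in 52 wildtype cells, a log2 ratio of 1.61 [1.19 to 2.07], and 1.75 in core members. It was also higher in all other Glut5 KO barcodes, at 1.13 [1.06 to 1.20]. In cDC1, cDC2 and pDC the ratio was 0.33, 0.96 and 0.68, with wide intervals on both sides of no change.

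Apol7c, an apolipoprotein L family gene, had 96 UMIs in 18 Glut5 KO cells and 31 UMIs in 11 wildtype cells (1.89 [1.30 to 2.54], and 1.88 in core members). It belongs to a cluster of similar genes on chromosome 15, so its count is uncertain where reads match several of them. In Glut5 KO 1 member held 31 of the 96 UMIs. All other barcodes had Apol7c at 2.82 and 0.648 CPM, a log2 ratio of 2.12. Sct, which encodes the hormone secretin, had 156 UMIs in 23 Glut5 KO cells and 71 in 14 wildtype cells (1.40, and 1.34 in core members). In pDC Sct was at 180 CPM in Glut5 KO and 91.5 CPM in wildtype cells (0.96). Its log2 ratio was 1.41 in all other barcodes and 0.04 in cDC1. Others among the 12 highest were Cfp, Apod, Gpr35, Olfm1, Cd37, H2-Oa and Lilrb4a, with log2 ratios of 1.02 to 1.55. In core members the log2 ratio was 0.47 for Apod and 0.26 for H2-Oa. The largest part of the Cfp and Apod UMIs of Glut5 KO cells, 92 of 146 and 77 of 114, was in the 13 members with few rule UMIs.

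Many of the UMIs behind the 12 lowest ratios were in the collagen-rich members of the wildtype library. Those 5 barcodes held 192 of 192 Ccn1, 233 of 233 Mgp, 334 of 335 Bgn, 228 of 234 Serpinh1, 337 of 401 Def8, 175 of 196 Anxa1 and 181 of 240 Egr1 UMIs of wildtype members, and 115 of 116 Col6a2 UMIs. Without those 5 the log2 ratio was -1.79 for Def8, -1.94 for Serpinh1 and -2.49 for Tm4sf1. Serpinh1 and Tm4sf1 had just 1 Glut5 KO UMI each, so their ratios lie near the floor. Over core members, which also leave out the members with few rule UMIs, Def8 had a log2 ratio of -0.16, Anxa1 of -0.10 and Egr1 of -0.38. There Serpinh1 had 1 UMI in Glut5 KO and 0 in wildtype, and Tm4sf1 had 1 and 2 (-0.47). Ankrd33b, an ankyrin repeat gene, did not depend on the members left out. It had 33 UMIs in 24 Glut5 KO cells and 159 UMIs in 99 wildtype cells, or 23.9 and 95.4 CPM, against at most 12.4 CPM in other dendritic types. Its log2 ratio was -1.98 [-2.58 to -1.45] over all members and -1.98 over core members, with -1.41 in Xist-alone and -2.07 in Y-alone cells.

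Core members gave a further set of lower genes, chosen after their values were seen. Sh3bgrl3, a small protein of the thioredoxin fold, had a core level of 917 CPM in Glut5 KO and 2083 CPM in wildtype cells, a log2 ratio of -1.18 [-1.28 to -1.08]. Pla2g7, which inactivates platelet-activating factor, was at 23.1 and 68.7 CPM (-1.55), and Pdcd1, the gene of PD-1, at 23.1 and 57.7 CPM (-1.30). Aldh1a2, which makes retinoic acid, was at 34.7 and 66.0 CPM (-0.92), but with a log2 ratio of 0.38 in Xist-alone cells. Gpr137b, a lysosomal membrane protein, stood on the other side, at 201 CPM in Glut5 KO and 109.9 CPM in wildtype core cells (0.87).

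**Figure D5:**
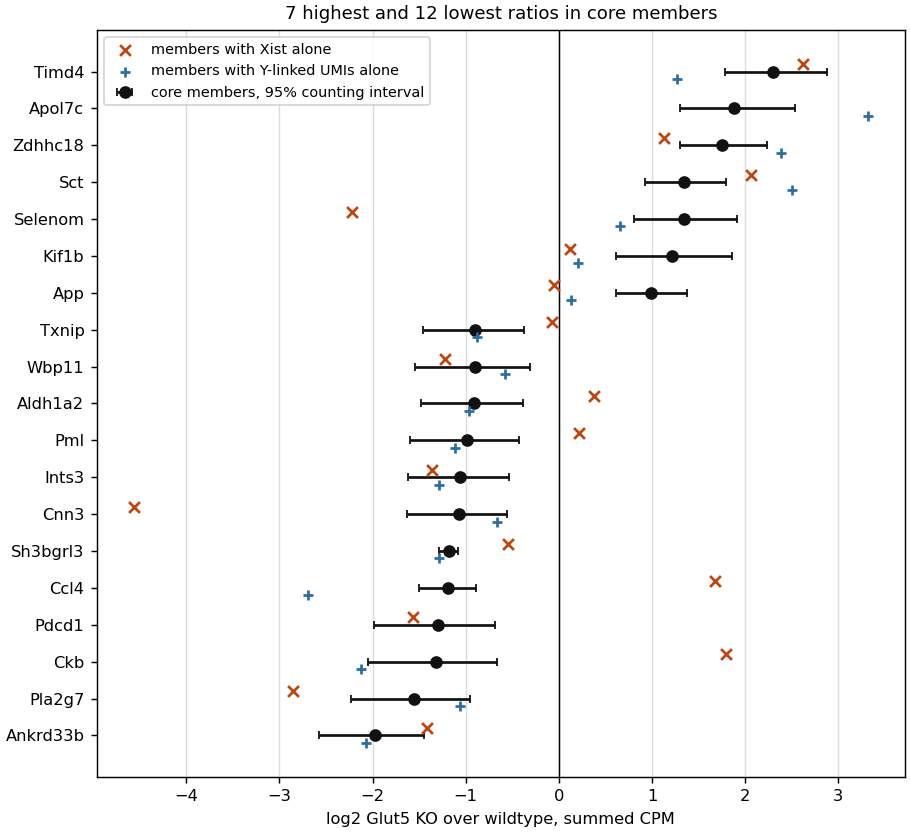
The 7 highest and 12 lowest log2 ratios of Glut5 KO over wildtype in core members, with 95% counting intervals. Black points are core members, x marks Xist-alone cells and plus marks Y-alone cells. Timd4 (2.30) and Ankrd33b (-1.98) are at the ends, and for Aldh1a2 the Xist-alone mark (0.38) lies on the other side of 0.

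Within the lists of the migratory state, single genes past 1.5-fold were few. Il2ra had a log2 ratio of 0.59 [0.23 to 0.96] and was higher in Glut5 KO among Xist-alone (1.17) and Y-alone cells (0.92). Il4i1 had a log2 ratio of 0.41 [0.27 to 0.55], with 0.63 and 0.56 in Xist-alone and Y-alone cells, and Socs2 had 0.42 [0.25 to 0.60], with 0.28 and 0.31. Tnfrsf9, shown above with its promoter, had -0.80 [-1.17 to -0.45] over all members, but 0.14 in Xist-alone and -1.18 in Y-alone cells. Flrt3, an adhesion protein outside the lists and among the leading genes named above, was at 109 CPM in Glut5 KO and 178 CPM in wildtype cells, with -0.70 [-0.99 to -0.41] over all members but 0.26 in Xist-alone cells. Cxcl10, an interferon-induced attractant of T cells, was at 143 and 318 CPM (-1.15 [-1.39 to -0.91], and -0.84 in core members). The top 5% of members held 79.8% of its UMIs in each library.

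Immediate-early genes had the lowest list median, -0.41, with 6 of 25 at least 1.5-fold lower, and -0.29 in core members. Atf3, a stress factor, was at 180 CPM in Glut5 KO and 330.2 CPM in wildtype cells, a log2 ratio of -0.88 over all members and over core members. Jun was at 256 and 623 CPM (-1.28), with -0.73 in core members and 0.14 in Y-alone cells. These genes also respond to tissue dissociation, and the part of that step was not tested. Cholesterol and lipid genes had a median of -0.37, with 1 of 16 higher and 5 lower. Fdps, an enzyme of the mevalonate pathway, was at 48.5 and 89.4 CPM (-0.88 [-1.32 to -0.46]), with -0.83 in Xist-alone and -0.84 in Y-alone cells. Idi1, the enzyme before it, was at 55.1 and 82.8 CPM (-0.59), while Cyp51 of the same list ran the other way, as given further below. The list median was -0.05 in Xist-alone and -0.69 in Y-alone cells. Irf7, a factor of the interferon response, was at 790 and 562 CPM (0.49 [0.36 to 0.62]), while its list had a median of 0.09. Interferon-gamma response genes had a median of -0.16 (3 of 25 higher, 2 lower), cell cycle genes -0.13 (0 of 26 higher, 8 lower) and fructose and polyol genes -0.11 (1 of 8 higher, 0 lower). The cell cycle median was 0.10 in core members, with 4 of 18 higher and 1 lower. Pattern and uptake receptors had a median of 0.13, with 6 of 20 higher and 2 lower. Identity genes had medians of -0.00 for cDC1, 0.19 for cDC2 and 0.20 for pDC. Over core members the cDC1 median was -0.58, with 0 of 11 higher and 5 lower, while it was 1.97 in Xist-alone and -1.11 in Y-alone cells. Ly6c2, a monocyte and pDC gene, was at 499 and 199 CPM (1.32 [1.13 to 1.52]), in 17.2% and 11.2% of members. It is itself part of the monocyte marker sum given above, so that sum is not separate from it. The 8 measured monocyte markers had a median of -0.26, with 1 higher and 3 lower. Whether monocyte transcripts had a part in the Ly6c2 ratio was not tested.

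Several of the named genes lie near Slc2a5 on chromosome 4. Within 30 Mb of it, 15 of 102 compared genes (14.7%) were past 1.5-fold in either direction, against 189 of 2828 (6.68%) elsewhere. Over core members it was 11 of 99 (11.1%), against 113 of 2742 (4.12%) elsewhere. Zdhhc18 (chr4:133605299-133650154) lies 16.5 Mb away, Sh3bgrl3 (chr4:134127406-134128789) 16.0 Mb and Tnfrsf9 (chr4:150914562-150946102) 0.799 Mb. Sh3bgrl3 had log2 ratios of -1.04 over all migratory members, -1.13 in cDC1, -1.26 in pDC and -1.26 in all other barcodes. Ndufs5, a complex I subunit 26.4 Mb away, had -0.62 in migratory cells, -1.20 in cDC1, -0.29 in pDC and -1.10 in all other barcodes. Timd4 and Ankrd33b lie on other chromosomes.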

How the data were processed

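Counts of UMIs per gene and barcode were used as deposited by the authors, with no normalization per the file headers. Libraries were of the 10x 5′ v2 kind, according to the labels' protocols. Cell Ranger 3.1.0 and mm10 were used per the submitters' processing notes, and 7.0.1 is the version per the file headers. Intron counting and annotation release are not stated. The design text speaks of knockdown where the labels say KO, and the labels were followed.

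Members and gene lists were chosen with earlier results of these data known. Barcodes with under 300 genes (26 Glut5 KO, 2 wildtype) or at least 10% mitochondrial UMIs (27 and 20 of the rest) were removed. Counts were summed per type and library and divided by the type's total (1380410 UMIs in Glut5 KO and 1665839 in wildtype migratory cells). The log2 ratio had 0.5 added to each count, and ratios between types were taken within each library. With 1 library per genotype, called means past 1.5-fold (between genotypes) or 2-fold (in all 6 ratios between types). Intervals are exact: Poisson for levels, Clopper-Pearson for shares, conditional binomial for ratios. A floor of 3 counts over the group stands for 0. A cDC1 had at least 2 UMIs of Xcr1 and Clec9a. A cDC2 had at least 2 of Cd209a, at least 1 of Flt3 and none of Xcr1 or Clec9a. A pDC had at least 4 of Siglech, Ccr9, Klk1 and Cox6a2 from at least 2 of them. The 54 Glut5 KO and 19 wildtype barcodes that met several of these rules were left out. Thinning to 1000 UMIs left out 12 Glut5 KO and 5 wildtype members.

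Genes between genotypes needed 100 UMIs and 50 CPM in a library, and genes between types 100 UMIs and 50 CPM in a type. Named genes were the 12 highest and 12 lowest ratios between genotypes, the 20 highest and 15 lowest between types (by the ratio nearest to 0), the 2 highest and 2 lowest members of each list with at least 100 UMIs, Slc2a5 and the rule genes. Predicted genes, genes of haemoglobins, antigen receptors, ribosomes, mitochondria and the sex chromosomes' markers, and other cells' markers were not eligible. A few of the genes so named are left out here. Other genes named to show a list's range, and those of core members, were picked after their values were seen. List medians use members with at least 20 UMIs. Positions come from GENCODE M21 (GRCm38; 32158 of 32285 gene IDs) and promoters from RefSeq. The ratio step was tested on simulated data. Tools were Python 3.11.15, numpy 2.4.6, scipy 1.17.1, pandas 2.3.3, scanpy 1.11.5 (Scrublet) and matplotlib 3.10.9.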

Additional observations from a re-analysis of the deposited data

Results flagged for a closer look

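A gene is given here where its difference between Glut5 KO and wildtype ran one way in migratory cells and the other way in cDC1, both past 1.5-fold with counting intervals clear of 0. It also needed at least 100 UMIs in migratory cells and at least 20 in cDC1, over both libraries together. The difference between the types was not tested.

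Among matrix and stroma genes the Glut5 KO over wildtype log2 ratio in migratory cells was -8.32 for Ccn1, -7.02 for Serpinh1, -6.31 for Bgn and -4.92 for Nrep. The value for Ccn1 depends on the 0.5 added to each count, since it had 0 UMIs in Glut5 KO and 192 in wildtype members. Against a floor of 3 counts over the group it was at least 53.0-fold lower in Glut5 KO. The wildtype UMIs sat in the 5 collagen-rich members. In cDC1 the order was turned round by single cells of the Glut5 KO library. There Ccn1 had 55 UMIs in Glut5 KO (54 of them in 1 cell) and 1 in wildtype cDC1, Bgn 49 (48 in 1 cell) and 1, Nrep 45 (all in 1 cell) and 1, and Serpinh1 29 (all in 1 cell) and 0.

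Def8 had a log2 ratio of -4.33 in migratory cells and of 0.67 in cDC1, where it had 63 UMIs in 18 Glut5 KO cells and 55 UMIs in 27 wildtype cells. In migratory members without the 5 collagen-rich ones the ratio was -1.79, and in core members it was -0.16. Csf1r, the receptor of the macrophage growth factor CSF1, had a log2 ratio of 0.64 in migratory cells and -0.66 in cDC1, where it had 37 UMIs in 18 Glut5 KO and 82 UMIs in 26 wildtype cells. In core migratory members it was 1.13, and in Xist-alone migratory cells -0.66.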

How the results depend on the processing

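No paired analysis was possible because each genotype had 1 library, and for the same reason no replicate could be left out. Of 48 alternatives for the share and the counts of genes, 38 kept the direction and stayed within their limits of change, and these 10 did not. The log2 share ratio was -0.072 in female cells (Xist alone) and -0.67 in male cells (Y-linked alone). The 90 genes higher in Glut5 KO became 41 in male cells, 144 with each cell weighing the same and 45 with at least 200 UMIs. The 114 lower became 57 in male cells, 58 with at least 200 UMIs and 60 in core members. The 114 genes lower than in other dendritic types became 201 with each cell weighing the same and 217 in core members. List medians left the counting interval of their middle member under 24 of 208 alternatives, and 37 changed sign, all of them medians whose interval held 0. For 157 named genes, 132 of 1537 alternatives changed the sign of the ratio. The 38 in which the interval over all members was clear of 0 follow. In female cells the log2 ratio turned to -0.050 for App, 1.68 for Ccl4, 0.22 for Pml, 0.38 for Aldh1a2, 0.14 for Tnfrsf9, 0.42 for Tnfrsf4, 0.26 for Flrt3, 0.055 for Ccl5, 1.05 for Il7r, 0.32 for Fabp5, 0.30 for Ccr7, 0.047 for Fscn1 and 0.00078 for Cacnb3. It also turned there to -0.024 for Tmem176a, 0.12 for Cdc42ep3, -0.66 for Csf1r, 0.14 for Psmb8 and -0.029 for Aldoa. In male cells it turned to 0.77 for Egr1, -0.78 for H2-DMb1, -0.21 for Ciita, -0.078 for Tnfrsf18, -1.16 for Il1r2, -0.20 for Serpinb9, 0.14 for Jun, 0.62 for Hspa1b, 0.14 for Cacnb3, -0.0043 for Adam8, -3.61 for Wdfy4, -0.069 for Rtp4, -0.77 for Fgl2 and -0.022 for Hspa8. Anxa1 turned to 0.48 without the collagen-rich members. Wdfy4 turned to -0.23 with at least 6 rule UMIs and to -0.87 in core members. Ly6d turned to -0.76 with at least 6 rule UMIs, -0.22 without the top 8% of Scrublet scores and -0.71 in core members. The wildtype female cells include the 5 collagen-rich members. Their part in the changes seen in female cells was not tested, nor was any other cause. Leaving out the collagen-rich members, core members and a wider cDC2 rule were chosen after seeing the data.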

Other observations

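The members of each list with the highest and lowest log2 ratio of Glut5 KO over wildtype, among those with at least 100 UMIs, were as follows in migratory cells. Among costimulatory genes Cd48 (0.33) and Tnfrsf18 (0.28) were highest, and Tnfrsf9 (-0.80) and Cd70 (-0.51) lowest, with Cd48 at -0.38 in Y-alone cells. Among regulators Socs2 (0.42) and Il4i1 (0.41) were highest, and Aldh1a2 (-0.88) and Socs3 (-0.62) lowest. Socs2 and Socs3 both encode feedback inhibitors of cytokine receptors, and they lay at opposite ends.

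In the migration list Tmem176a (0.42) and the surface protease Adam8 (0.34) were highest, and Arhgap31 (-0.36) and Cdc42ep3 (-0.34) lowest. In the NF-kB list the kinase Ripk2 (0.31) and Serpinb9 (0.21) were highest, and Clic4 (-0.34) and the inhibitor Nfkbid (-0.33) lowest. No gene of these 4 in the NF-kB list passed 1.5-fold. Chemokines ran between Cxcl16 (0.05) and Ccl17 (-0.03) at the top and Cxcl10 (-1.15) and Ccl4 (-0.87) at the bottom. Cytokines ran between Ltb (0.83) and Il12b (0.09) at the top and Ebi3 (-0.13) and Il1b (-0.06) at the bottom. Receptors ran between the decoy receptor Il1r2 (0.97) and Csf1r (0.64) at the top and Csf2rb2 (-0.40) and Il7r (-0.39) at the bottom. In core members Ltb had 0.40 and Il1r2 0.37, and in Y-alone cells Il1r2 was on the other side of 0, at -1.16.

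In the class II list H2-Oa (1.04) and H2-Ob (0.82), the chains of the H2-O molecule that holds back peptide loading, were highest. Ifi30 (0.24) and H2-DMb1 (0.35) were lowest and still above 0. Class I genes stayed closer together, between H2-T23 (0.31) and Tapbpl (0.16) at the top and the immunoproteasome subunit Psmb8 (-0.12) and Pdia3 (-0.08) at the bottom. The type I interferon list ran between Irf7 (0.49) and Rtp4 (0.45) and Oas3 (-0.23) and Oasl2 (-0.19), and the interferon-gamma list between Fgl2 (0.71) and Ciita (0.68) and Cxcl10 (-1.15) and Wars (-0.62). Both interferon lists thus held genes on either side of 0.

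Identity genes of other types leaned on few cells. Cd8a (1.39) and Wdfy4 (0.78) were highest in the cDC1 list, with Ppt1 (-0.32) and Btla (-0.31) lowest, while core members had 0.46 for Cd8a and -0.87 for Wdfy4. In the cDC2 list Ltb (0.83) and Csf1r (0.64) were highest, and Klf4 (-0.70) and Irf4 (-0.40) lowest. In the pDC list Ly6c2 (1.32) and Ly6d (0.32) were highest, and Tcf4 (-0.29) and Spib (-0.19) lowest, with Tcf4 at 0.13 in core members. Uptake receptors ran between Axl (0.15, and -1.34 in Xist-alone cells) and Fcgr1 (0.10) and Ly75 (-0.17) and Fcgr3 (-0.09).

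Metabolic lists were narrow apart from a few genes. Glycolysis ran between Aldoa (0.23) and the lactate exporter Slc16a3 (0.20, and -0.96 in Xist-alone cells) and Pgam1 (-0.27) and Eno1 (-0.03). Of fructose and polyol genes just Gpi1 (0.18), Pfkfb3 (0.11) and Akr1b3 (-0.33), the aldose reductase, had enough UMIs. Respiratory chain genes ran between Uqcrfs1 (0.29) and Ndufa5 (0.18) and the complex I subunits Ndufv1 (-0.85) and Ndufs5 (-0.62). Lipid genes ran between Cyp51 (0.52) and Apoe (-0.07) at the top and Fdps (-0.88) at the bottom. Cell cycle genes ran between Tuba1b (0.32) and Hmgb2 (0.20) and Stmn1 (-1.68, and -0.59 in core members) and Pcna (-0.15). Immediate-early and heat shock genes ran between Hspa8 (0.08) and Btg2 (-0.01) and Egr1 (-2.26) and Jun (-1.28).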
